A study of Mus musculus with 15 samples.

Results

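The 31 genes described here belong to mature oligodendrocytes, the cells that wrap axons of the brain in myelin, and they encode proteins and lipid enzymes of myelin, other products of these cells and 3 of their transcription factors. They were taken by symbol from a set list, and all 31 were found, each once, among 55487 gene identifiers. RNA of frozen forebrain was sequenced in 5 groups of 3 libraries each, all from wildtype (WT) mice. IR_BMT was titled IR-BMT treated, PLX3X_CD30 was titled only PLX treated with 3X and CD30 in its library names, PLX3X_CD0 was titled PLX 3x treated, PLX1X was titled PLX 1x treated, and NT had no treatment. The labels used here gave no strain, age, sex, dose or time for any group and did not spell out IR-BMT, PLX, CD0 or CD30. Nothing in them says whether replicates were separate animals, so p-values here measure only how these libraries spread, and that spread may be technical. Each treated group was set against NT, and the treated groups were set against each other.

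Myelin of the brain is a spiral of oligodendrocyte membrane. Its stacked layers are held together by membrane and cytoplasmic proteins, its outer and axonal faces carry adhesion molecules, and its lipids include galactosylceramide and sulfatide, which few other membranes hold in such amounts. The transcription factors Sox10 and Myrf drive this gene programme as precursors differentiate, and adult oligodendrocytes go on expressing it at high levels.

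Library totals lay between 19249641 and 54801136 counts. Levels are given as CPM, the share of a library's counts scaled to a common total, after scaling by edgeR's trimmed mean of M-values (TMM), a difference between groups is a log2 fold change with its standard error (SE), and a gene passed where its adjusted p (edgeR's quasi-likelihood test, Benjamini-Hochberg over 21780 genes) was below 0.05. The filter on low counts was passed by all 31 genes. The 3 libraries of each value are given in the order of replicates 1, 2 and 3. 3 libraries stood apart. NT replicate 1 was the highest of the 15 libraries for 24 of the 31 genes and for 10 of 10 genes of a thalamic list, whose summed level was 377.7 CPM in it, against 161.3 and 157.2 CPM in the other NT libraries. The thalamic list includes Tcf7l2, which cells of the oligodendrocyte lineage also express. Replicate 1 of IR_BMT and replicate 1 of PLX3X_CD0 held RNA of choroid plexus, with Ttr, a transport protein of that epithelium, at 448 and 1481 CPM, against 22.0 CPM or less in every other library. Microglial genes summed to 278.6 to 317.4 CPM in IR_BMT, 270.2 to 284.6 CPM in PLX3X_CD30, 29.26 to 59.07 CPM in PLX3X_CD0, 34.91 to 77.47 CPM in PLX1X and 600.8 to 716.2 CPM in NT. Their part in the results below was not tested. The library kit does not keep strand, and 12 of the 31 genes, among them Mobp, Cnp, Tspan2, Cryab, Ermn, Evi2a and Qdpr, share exon sequence with another annotated gene, whose reads cannot be told apart from theirs.

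In NT forebrain the genes spanned a wide range of levels. Per kilobase of the longest annotated transcript, Mbp, which encodes the protein that compacts the cytoplasmic faces of myelin, stood at 944.5 ± 100.1 CPM per kb (SD, n = 3). Mobp, another abundant protein of compact myelin, followed at 389.8 CPM per kb, then Trf (transferrin, the iron carrier) at 237.8, Cnp (a phosphodiesterase of the myelin cytoplasm) at 180.0, Plekhb1 at 170.2 and Car2 (a carbonic anhydrase) at 170.0. At the low end stood Tmem125 at 5.18 and Pllp, a proteolipid, at 4.70 CPM per kb. The 31 genes together summed to 6813 to 7170 CPM in IR_BMT, 7714 to 7975 in PLX3X_CD30, 6677 to 8180 in PLX3X_CD0, 7637 to 7925 in PLX1X and 8642 to 10510 in NT. The 8180 CPM belong to PLX3X_CD0 replicate 1, where Enpp2, described below with the choroid plexus RNA, was at 1821 CPM. In replicates 2 and 3, which summed to 6677 and 7163 CPM, Enpp2 was at 309 and 351 CPM. No treated library reached the lowest NT library. In bulk RNA, fewer oligodendrocytes and less of this RNA per oligodendrocyte cannot be told apart. Genes of Schwann cells, which make myelin outside the brain, summed to 65.28 to 70.07 CPM in IR_BMT and 58.62 to 67.18 CPM in NT, and Pmp2, a myelin lipid carrier of those cells, was at 0 in all 15 libraries.

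The promoters of Mobp, Cnp and Mog (a glycoprotein of the outermost myelin surface) are shown because Mobp fell in 3 treated groups below and Cnp and Mog in IR_BMT alone, and because all 3 windows hold letters that the lineage's own factors are known to bind. The sequences are RefSeq's, build GRCm38.p6, 5′ to 3′ on the gene's strand, and cover the 250 bases before the annotated start. Capitals mark ACAAAG, the core letters bound by SOX factors, and CTGGCAC or CTGGTAC, the core letters bound by MYRF, read on both strands. Mobp lies on the plus strand at chr9:120149492-120149741, Cnp on the plus strand at chr11:100574689-100574938, and Mog on the minus strand at chr17:37023399-37023648.
Mobp: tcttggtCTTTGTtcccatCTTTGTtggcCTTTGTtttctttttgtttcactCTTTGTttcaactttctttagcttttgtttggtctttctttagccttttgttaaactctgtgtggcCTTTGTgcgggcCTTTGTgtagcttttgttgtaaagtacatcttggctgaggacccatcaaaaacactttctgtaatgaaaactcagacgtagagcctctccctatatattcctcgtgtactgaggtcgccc
Cnp: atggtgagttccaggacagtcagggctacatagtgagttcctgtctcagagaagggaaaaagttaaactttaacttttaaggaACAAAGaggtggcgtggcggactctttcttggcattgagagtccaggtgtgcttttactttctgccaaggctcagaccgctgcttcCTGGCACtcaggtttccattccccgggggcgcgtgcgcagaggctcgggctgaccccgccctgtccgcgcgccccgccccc
Mog: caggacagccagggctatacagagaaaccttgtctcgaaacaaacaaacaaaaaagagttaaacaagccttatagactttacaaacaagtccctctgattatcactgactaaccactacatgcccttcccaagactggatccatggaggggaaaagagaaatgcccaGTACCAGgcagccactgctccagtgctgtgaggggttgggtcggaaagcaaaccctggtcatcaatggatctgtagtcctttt
Mobp's window held ACAAAG 6 times, each on the opposite strand, Cnp's held it once and a MYRF match once, 167 and 81 bases before the start, and Mog's held 1 MYRF match 83 bases before the start. Counting also the 50 bases after the start, 30 promoter windows of 21 of the 31 genes were in the table. The SOX letters were in 9 of these 30 windows, of 7 genes, and in 18.7% of all 32851 windows. The MYRF letters were in 7 of the 30 windows, of 6 genes, and in 7.1% of all windows. No match overlapped another, and a match describes letters, not binding.

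Against NT, no gene of the 31 passed as higher in any treated group, and between 5 and 18 passed as lower. In IR_BMT 18 fell, where 15.4% of all genes tested passed as lower and 15.1% as higher, and the median log2 fold change was -0.32, against -0.05 over all genes tested. In PLX3X_CD30 5 fell (1.84% of all genes lower, 4.74% higher; median -0.19, against -0.02). In PLX3X_CD0 17 fell (9.53% lower, 12.2% higher; median -0.26, against -0.03). In PLX1X 9 fell (8.12% lower, 9.97% higher; median -0.16, against -0.04). The 4 comparisons share the NT libraries. Without NT replicate 1, 17 fell and 1 rose in IR_BMT (13.4% lower, 13% higher), 2 fell in PLX3X_CD30 (1.34% lower, 4.01% higher), 13 fell in PLX3X_CD0 (7.52% lower, 10.3% higher), and 8 fell and 1 rose in PLX1X (7.27% lower, 10.2% higher). The medians were then -0.20 in IR_BMT, -0.08 in PLX3X_CD30, -0.21 in PLX3X_CD0 and -0.09 in PLX1X. Without all 3 libraries that stood apart, 14 fell and 1 rose in IR_BMT (12.5% lower, 13.2% higher), 2 fell in PLX3X_CD30 (1.82% lower, 3.98% higher), 13 fell in PLX3X_CD0 (6.67% lower, 9.33% higher), and 9 fell and 1 rose in PLX1X (8.15% lower, 10.1% higher). Cnp, Gpr37, Fa2h and Qdpr were the 4 genes that then no longer passed in IR_BMT. The PLX3X_CD30 count also moved to 10 without NT replicate 2, 8 without NT replicate 3, and 3 without PLX3X_CD30 replicate 1 or 3. Shares over all genes are not given here for these runs. Mbp, Plekhb1 and Evi2a were the 3 genes that fell in all 4 comparisons, and 8 genes (Pllp, Cldn11, Mag, Opalin, Tmem125, Enpp2, Myrf and Nkx6-2) fell in none. Without NT replicate 1 Mbp and Plekhb1 were lower in all 4.

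**Figure D1:**
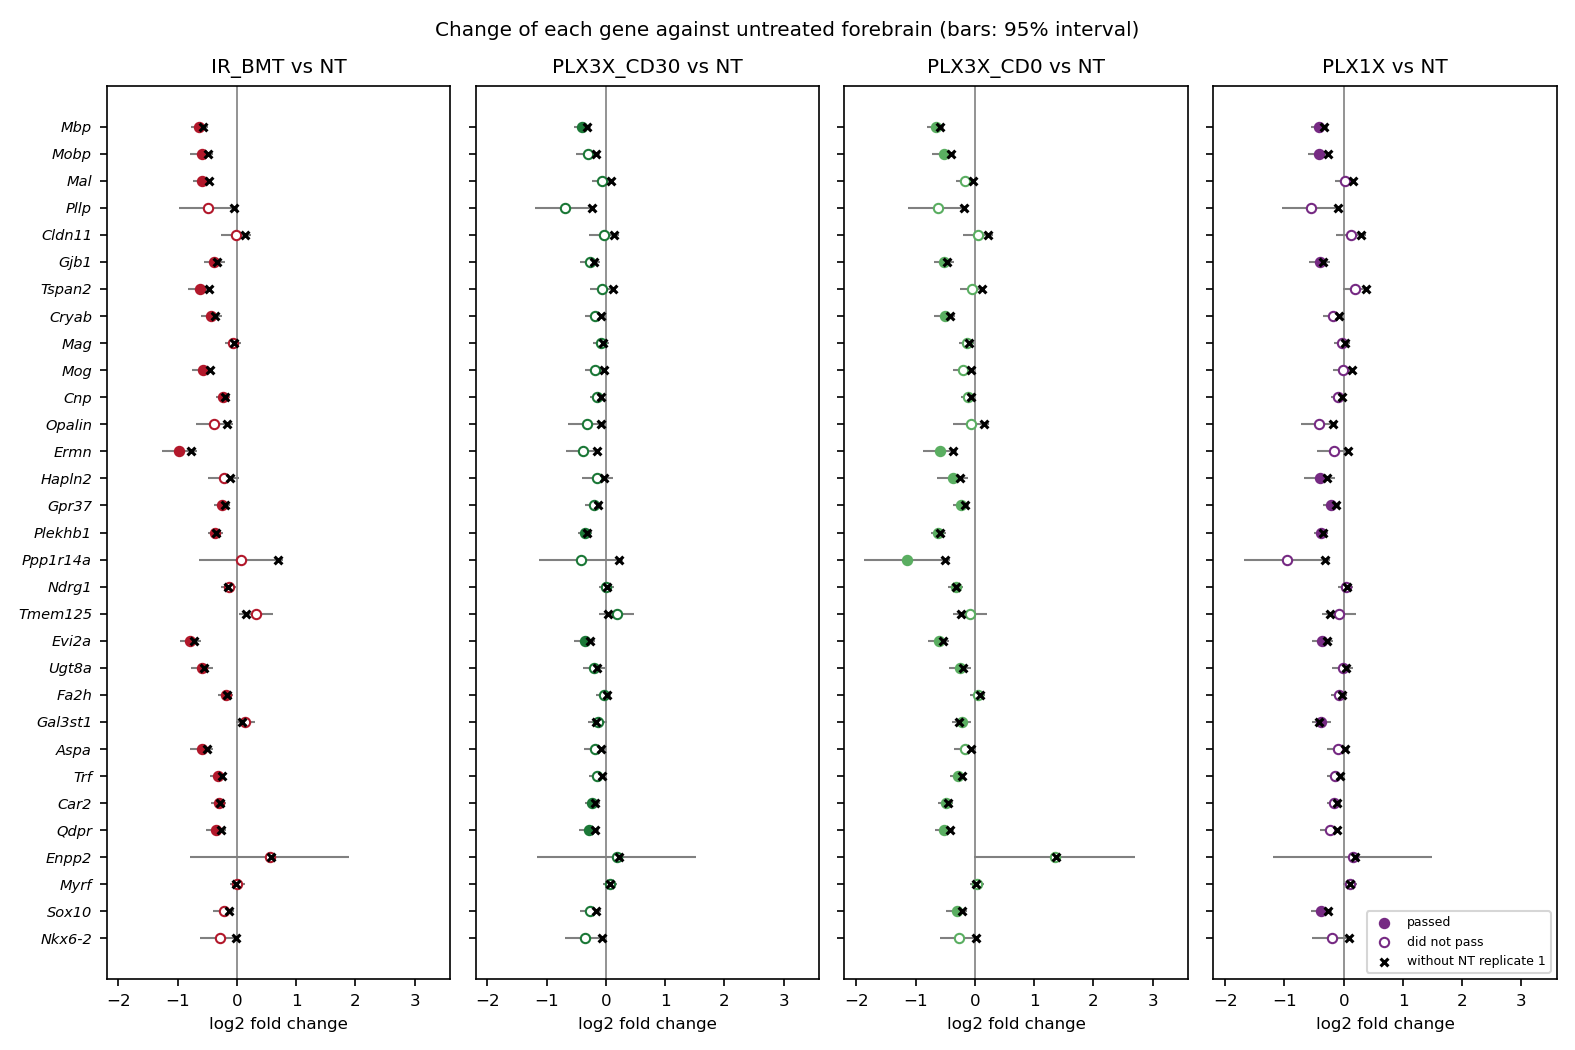
Log2 fold change of each of the 31 genes against NT (horizontal axis), 1 panel per treated group. Filled circles passed the test, open circles did not, bars are 95% intervals and crosses give the value without NT replicate 1. No filled circle lies right of 0, and IR_BMT has the most filled circles, 18.

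Genes for proteins of compact myelin and its junctions, with the heat shock protein gene Cryab grouped among them, number 8. Of these, 6 fell in IR_BMT, 1 in PLX3X_CD30, 4 in PLX3X_CD0 and 3 in PLX1X. Mbp (ENSMUSG00000041607, mm10 chr18:82475146-82585637) had 2775, 2907 and 3068 CPM in IR_BMT, 3338, 3460.0 and 3504 CPM in PLX3X_CD30, 2759, 2796 and 3047 CPM in PLX3X_CD0, 3382, 3307 and 3506 CPM in PLX1X, and 4952, 4008 and 4631 CPM in NT. Every treated library lay below every NT library, and IR_BMT and PLX3X_CD0 overlapped each other and lay below the other treated groups. Its log2 fold change against NT was -0.64 ± 0.07 in IR_BMT (adjusted p = 2.07e-06, edgeR), -0.40 ± 0.07 in PLX3X_CD30 (adjusted p = 0.00173), -0.66 ± 0.07 in PLX3X_CD0 (adjusted p = 1.45e-06) and -0.41 ± 0.07 in PLX1X (adjusted p = 0.000315). Mbp passed in all 4 comparisons under every alternative run. Its values without NT replicate 1 were -0.58, -0.32, -0.59 and -0.33 in the same order.

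Mobp (ENSMUSG00000032517, chr9:120149707-120181484) had 787, 858 and 893 CPM in IR_BMT, 956, 975 and 1189 CPM in PLX3X_CD30, 846, 900.3 and 922 CPM in PLX3X_CD0, 961, 955 and 974 CPM in PLX1X, and 1489, 1106 and 1250.0 CPM in NT. PLX3X_CD30 alone overlapped NT, through its replicate 3. Mobp fell in IR_BMT (-0.60 ± 0.09, adjusted p = 0.000145, edgeR), PLX3X_CD0 (-0.53 ± 0.09, adjusted p = 0.000643) and PLX1X (-0.41 ± 0.09, adjusted p = 0.00568), and had -0.30 ± 0.09 in PLX3X_CD30 (adjusted p = 0.0658), where it passed without PLX3X_CD30 replicate 3 or NT replicate 2. Mobp still passed in PLX1X without NT replicate 1, with -0.27. Gjb1 (ENSMUSG00000047797, chrX:101376378-101385629), a connexin that joins layers of myelin through gap junctions, had 18.4, 22.5 and 23.3 CPM in IR_BMT, 24.1, 23.5 and 21.9 CPM in PLX3X_CD30, 18.4, 20.2 and 19.8 CPM in PLX3X_CD0, 21.3, 20.6 and 21.3 CPM in PLX1X, and 29.8, 26.7 and 27.3 CPM in NT. All 12 treated libraries lay below NT, and it fell in the same 3 groups as Mobp, with log2 fold changes of -0.38 ± 0.08 in IR_BMT (adjusted p = 0.00187, edgeR), -0.52 ± 0.08 in PLX3X_CD0 (adjusted p = 0.000166) and -0.41 ± 0.08 in PLX1X (adjusted p = 0.0021). In PLX3X_CD30 its value was -0.27 ± 0.08 (adjusted p = 0.0615).

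Cryab, a small heat shock protein abundant in oligodendrocytes, had 103, 94.0 and 103 CPM in IR_BMT, 121, 129 and 108 CPM in PLX3X_CD30, 99.5, 84.4 and 102 CPM in PLX3X_CD0, 122, 110.3 and 126 CPM in PLX1X, and 149.8, 130.3 and 126 CPM in NT. It fell in IR_BMT (-0.44, adjusted p = 0.000686, edgeR) and PLX3X_CD0 (-0.51, adjusted p = 0.000263), and in both groups every library lay below every NT library. Mal and Tspan2, a sorting proteolipid and a tetraspanin of myelin, fell in IR_BMT and in no PLX group, and are described with the comparison of IR_BMT and the PLX groups. Cldn11, the claudin of myelin's tight junctions, had log2 fold changes of -0.02, -0.03, 0.06 and 0.12 against NT in IR_BMT, PLX3X_CD30, PLX3X_CD0 and PLX1X (adjusted p from 0.549 to 0.923, edgeR), and none passed. Pllp had 6.24, 6.10 and 6.72 CPM in IR_BMT, against 14.1, 5.99 and 7.04 CPM in NT, and its value in IR_BMT was -0.48 (adjusted p = 0.137) with all libraries and -0.05 without NT replicate 1.

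**Figure D2:**
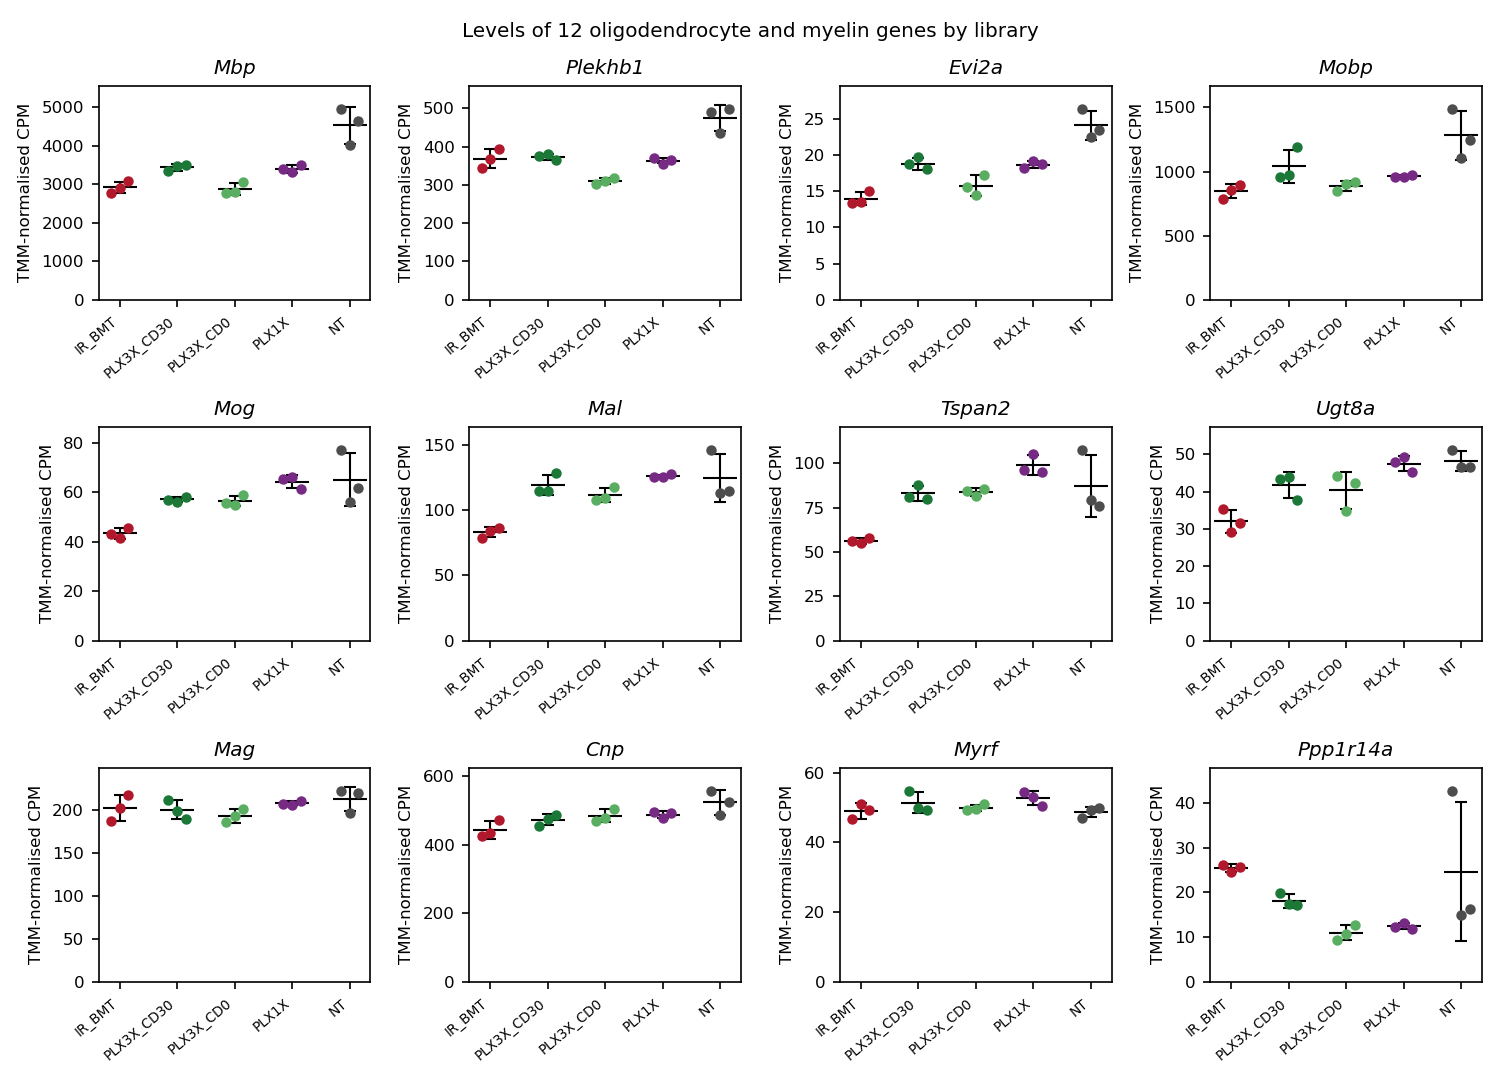
Level of 12 of the 31 genes in each of the 15 libraries (vertical axes, TMM-normalised CPM), with groups from IR_BMT on the left to NT on the right; points are libraries and bars are group means with SD. Mbp, Plekhb1 and Evi2a have every treated library below every NT library, while Mag overlaps NT in every group.

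Proteins of the myelin surface and cytoplasm are encoded by 12 of the genes, of which 6 fell in IR_BMT, 2 in PLX3X_CD30, 7 in PLX3X_CD0 and 4 in PLX1X. Plekhb1 (ENSMUSG00000030701, chr7:100642892-100662414), a membrane protein with a pleckstrin homology domain, had 345, 369 and 393 CPM in IR_BMT, 375, 379.8 and 364 CPM in PLX3X_CD30, 303, 311 and 317 CPM in PLX3X_CD0, 370.0, 355 and 365 CPM in PLX1X, and 491, 437 and 499 CPM in NT. PLX3X_CD0 lay below all other groups and NT above all others. The fold changes against NT were -0.37 ± 0.06 in IR_BMT (adjusted p = 0.000107, edgeR), -0.35 ± 0.06 in PLX3X_CD30 (adjusted p = 0.0015), -0.61 ± 0.06 in PLX3X_CD0 (adjusted p = 5.97e-07) and -0.39 ± 0.06 in PLX1X (adjusted p = 0.000147), and they passed under every alternative run. Evi2a (ENSMUSG00000078771, chr11:79526560-79530609) had 13.3, 13.5 and 15.0 CPM in IR_BMT, 18.8, 19.7 and 18.0 CPM in PLX3X_CD30, 15.6, 14.5 and 17.3 CPM in PLX3X_CD0, 18.2, 19.1 and 18.7 CPM in PLX1X, and 26.4, 22.6 and 23.5 CPM in NT. IR_BMT and PLX3X_CD0 again held the lowest libraries. Evi2a had -0.79 ± 0.09 in IR_BMT (adjusted p = 2.89e-06, edgeR), -0.61 ± 0.09 in PLX3X_CD0 (adjusted p = 4.13e-05) and -0.37 ± 0.08 in PLX1X (adjusted p = 0.00518). It also fell in PLX3X_CD30 (-0.36 ± 0.09, adjusted p = 0.0166), a call lost without NT replicate 1 or PLX3X_CD30 replicate 1 or 3 (adjusted p from 0.0598 to 0.083).

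Gpr37 (ENSMUSG00000039904, chr6:25665878-25690729), a receptor that in mice restrains oligodendrocyte differentiation, had 62.5, 59.5 and 67.0 CPM in IR_BMT, 66.5, 66.6 and 61.3 CPM in PLX3X_CD30, 65.3, 59.6 and 66.5 CPM in PLX3X_CD0, 64.0, 68.5 and 62.1 CPM in PLX1X, and 81.0, 72.4 and 71.6 CPM in NT. The treated groups overlapped each other, and all lay below NT. It had -0.25 ± 0.07 in IR_BMT (adjusted p = 0.00746, edgeR), -0.21 ± 0.07 in PLX3X_CD30 (adjusted p = 0.0655), -0.23 ± 0.07 in PLX3X_CD0 (adjusted p = 0.0163) and -0.21 ± 0.07 in PLX1X (adjusted p = 0.0349). These calls were fragile. The IR_BMT call was lost without IR_BMT replicate 2 (adjusted p = 0.0532), the PLX3X_CD0 call without NT replicate 1 or PLX3X_CD0 replicate 2 (0.0832 and 0.087), and the PLX1X call without NT replicate 1 or PLX1X replicate 1 or 3 (0.115 to 0.182). The PLX1X call was also lost with no filter on low counts, in a fit on the 6 libraries compared and without the 3 libraries that stood apart.

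Ermn, ermin, a cytoskeletal protein of the myelin sheath, had 39.98, 33.4 and 34.9 CPM in IR_BMT, 53.6, 58.1 and 51.5 CPM in PLX3X_CD30, 47.5, 41.9 and 51.5 CPM in PLX3X_CD0, 62.1, 64.5 and 63.5 CPM in PLX1X, and 91.5, 63.4 and 59.0 CPM in NT. It fell in IR_BMT (-0.97 ± 0.14, adjusted p = 0.000129, edgeR) and PLX3X_CD0 (-0.59 ± 0.13, adjusted p = 0.00611), while PLX1X overlapped NT. Ermn without NT replicate 1 had -0.77 in IR_BMT and -0.38 in PLX3X_CD0 and passed in both. With the length and GC term described below the IR_BMT value was -0.49, and in a fit on the 6 libraries compared the PLX3X_CD0 call was lost (adjusted p = 0.0635; range over alternatives 9.11e-12 to 0.0635). Ndrg1, whose human mutations cause a demyelinating neuropathy, had 76.2, 87.4 and 85.7 CPM in IR_BMT, 100.2, 89.3 and 87.6 CPM in PLX3X_CD30, 73.5, 72.7 and 73.5 CPM in PLX3X_CD0, 96.5, 90.7 and 95.4 CPM in PLX1X, and 91.9, 93.3 and 90.0 CPM in NT. Of the 4 groups it fell in PLX3X_CD0 (-0.32, adjusted p = 0.000675, edgeR), and the IR_BMT value was -0.14 (adjusted p = 0.0847). Hapln2, a link protein of the matrix at nodes of Ranvier, passed as lower in PLX3X_CD0 (-0.37, adjusted p = 0.041) and PLX1X (-0.41, adjusted p = 0.0314). Each Hapln2 call was lost when any 1 of 4 libraries was left out, NT replicate 1, NT replicate 3, and replicates 1 and 3 of the treated group (adjusted p from 0.0749 to 0.18 in PLX3X_CD0 and 0.0668 to 0.144 in PLX1X). With the length and GC term the PLX1X call was lost as well.

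Ppp1r14a, an inhibitor of a protein phosphatase, depended on NT replicate 1. It had 26.1, 24.5 and 25.6 CPM in IR_BMT, 19.7, 17.3 and 17.1 CPM in PLX3X_CD30, 9.38, 10.8 and 12.7 CPM in PLX3X_CD0, 12.3, 13.2 and 11.8 CPM in PLX1X, and 42.7, 14.9 and 16.3 CPM in NT. With all libraries it passed as lower in PLX3X_CD0 (-1.14 ± 0.33, adjusted p = 0.03, edgeR), a call lost without any 1 of the PLX3X_CD0 libraries (adjusted p from 0.0553 to 0.101), and in IR_BMT it had 0.08 (adjusted p = 0.891). Without NT replicate 1 it was higher in IR_BMT (0.69, adjusted p = 0.000116) and lower in PLX3X_CD0 (-0.51, adjusted p = 0.00224) and PLX1X (-0.32, adjusted p = 0.0498). Over all alternatives its adjusted p ran from 0.000116 to 0.938 in IR_BMT, from 8.1e-24 to 0.184 in PLX3X_CD0 and from 8.13e-17 to 0.246 in PLX1X.

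Mag, Mog and Cnp encode proteins of the axonal face, the outer face and the cytoplasm of myelin. Mog and Cnp fell in IR_BMT, and Mag passed in none of the 4 comparisons as deposited, though it did in IR_BMT with the length and GC term given below. Mag (ENSMUSG00000036634, chr7:30899176-30914873) had 187, 203 and 218 CPM in IR_BMT, 212, 199 and 190.1 CPM in PLX3X_CD30, 186, 193 and 202 CPM in PLX3X_CD0, 208, 206 and 211 CPM in PLX1X, and 223, 197 and 220.1 CPM in NT. Each treated group overlapped NT. Mag's differences from NT had 95% intervals of -0.21 to 0.06 in IR_BMT, -0.22 to 0.05 in PLX3X_CD30, -0.27 to -0.01 in PLX3X_CD0 and -0.17 to 0.10 in PLX1X on the log2 scale, and none passed (adjusted p from 0.132 to 0.758, edgeR). Mog (ENSMUSG00000076439, chr17:37010743-37023398) had 43.0, 41.5 and 45.7 CPM in IR_BMT, 57.0, 56.2 and 58.0 CPM in PLX3X_CD30, 55.5, 55.02 and 59.0 CPM in PLX3X_CD0, 65.2, 66.2 and 61.5 CPM in PLX1X, and 77.1, 56.2 and 61.9 CPM in NT. IR_BMT alone lay apart from NT, and Mog fell there (-0.58 ± 0.08, adjusted p = 3.89e-05, edgeR). Cnp (ENSMUSG00000006782, chr11:100574904-100591729) had 424, 433 and 472 CPM in IR_BMT, 455, 476 and 486 CPM in PLX3X_CD30, 469.7, 477 and 505 CPM in PLX3X_CD0, 494, 476 and 492 CPM in PLX1X, and 556, 486 and 526 CPM in NT. It too fell in IR_BMT (-0.24 ± 0.06, adjusted p = 0.00424), and its values of -0.15, -0.11 and -0.10 in PLX3X_CD30, PLX3X_CD0 and PLX1X did not pass. The Cnp call in IR_BMT was lost without the 3 libraries that stood apart (adjusted p = 0.0627; range over alternatives 0.000105 to 0.0627). Opalin, a membrane glycoprotein of oligodendrocytes, passed in none of the 4 comparisons, with -0.38 in IR_BMT, -0.33 in PLX3X_CD30, -0.07 in PLX3X_CD0 and -0.42 in PLX1X (adjusted p from 0.0554 to 0.784). It passed as lower under 6 of 14 alternatives in IR_BMT and 7 of 14 in PLX1X, among them leaving out NT replicate 2 or 3, the replicate block and DESeq2. Opalin without NT replicate 1 had -0.16 in IR_BMT, -0.09 in PLX3X_CD30, 0.16 in PLX3X_CD0 and -0.18 in PLX1X, and none passed. Tmem125, at 11.7, 11.9 and 13.0 CPM in IR_BMT and 7.05, 11.2 and 10.7 CPM in NT, did not pass in any either, with 0.32, 0.18, -0.08 and -0.08 in the same order.

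Enzymes of myelin lipid synthesis are encoded by 4 of the genes, of which 3 fell in IR_BMT, 0 in PLX3X_CD30, 2 in PLX3X_CD0 and 1 in PLX1X. Ugt8a (ENSMUSG00000032854, chr3:125865271-125938619), which makes galactosylceramide, had 35.3, 29.2 and 31.6 CPM in IR_BMT, 43.4, 43.9 and 37.7 CPM in PLX3X_CD30, 44.1, 34.7 and 42.4 CPM in PLX3X_CD0, 47.9, 49.3 and 45.3 CPM in PLX1X, and 51.2, 46.6 and 46.7 CPM in NT. PLX1X overlapped NT, and the other groups lay below it. Ugt8a fell in IR_BMT (-0.59 ± 0.09, adjusted p = 6.89e-05, edgeR), and its -0.25 ± 0.09 in PLX3X_CD0 (adjusted p = 0.0462) was lost without any 1 of the NT libraries or PLX3X_CD0 replicate 2 or 3 (adjusted p from 0.0531 to 0.232). Aspa, which frees acetate from N-acetylaspartate, had 16.2, 14.2 and 14.3 CPM in IR_BMT, against 25.7, 21.5 and 20.7 CPM in NT (-0.60, adjusted p = 6.98e-05). Fa2h, which hydroxylates the fatty acids of these lipids, had 54.7, 50.7 and 56.8 CPM in IR_BMT, against 65.1, 59.2 and 61.1 CPM in NT, and its -0.19 (adjusted p = 0.0263) was lost without NT replicate 1 or IR_BMT replicate 1 or 2 (adjusted p from 0.055 to 0.148). Gal3st1, which adds the sulfate of sulfatide, moved in other groups. It had 23.6, 23.9 and 23.6 CPM in IR_BMT, 19.7, 19.2 and 19.9 CPM in PLX3X_CD30, 17.7, 18.2 and 19.3 CPM in PLX3X_CD0, 15.96, 16.2 and 17.6 CPM in PLX1X, and 19.8, 20.8 and 23.7 CPM in NT, and fell in PLX1X (-0.38, adjusted p = 0.00206). Its -0.22 in PLX3X_CD0 (adjusted p = 0.0425) was lost without NT replicate 2 or 3 or any 1 of the PLX3X_CD0 libraries (adjusted p from 0.0515 to 0.218).

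Of 4 genes for metabolism and secreted products, 3 fell in IR_BMT, 2 in PLX3X_CD30, 3 in PLX3X_CD0 and 0 in PLX1X. Car2 (ENSMUSG00000027562, chr3:14886273-14900770) had 247, 237 and 252 CPM in IR_BMT, 270.4, 274 and 235 CPM in PLX3X_CD30, 219, 207 and 224 CPM in PLX3X_CD0, 279.6, 262 and 272 CPM in PLX1X, and 316, 299.6 and 296 CPM in NT. PLX3X_CD0 was the lowest group and NT the highest, with no overlap between either and any other. It fell in IR_BMT (-0.31 ± 0.06, adjusted p = 0.000662, edgeR) and PLX3X_CD0 (-0.49 ± 0.06, adjusted p = 1.06e-05), and had -0.16 ± 0.06 in PLX1X (adjusted p = 0.0644). Its -0.23 ± 0.06 in PLX3X_CD30 (adjusted p = 0.0285) was lost without NT replicate 1 or PLX3X_CD30 replicate 3 (adjusted p of 0.091 and 0.166). Qdpr (ENSMUSG00000015806, chr5:45434021-45450236), which recycles the cofactor tetrahydrobiopterin, had 118, 121 and 133 CPM in IR_BMT, 137, 136 and 118 CPM in PLX3X_CD30, 112, 102 and 119.9 CPM in PLX3X_CD0, 130.3, 139 and 138 CPM in PLX1X, and 179.6, 147 and 151 CPM in NT. All treated libraries lay below NT. It fell in IR_BMT (-0.36 ± 0.08, adjusted p = 0.00209) and PLX3X_CD0 (-0.51 ± 0.08, adjusted p = 0.000133), and its -0.29 ± 0.08 in PLX3X_CD30 (adjusted p = 0.0377) was lost without NT replicate 1 or any 1 of the PLX3X_CD30 libraries (adjusted p from 0.0615 to 0.184). Trf had 469, 482 and 514 CPM in IR_BMT, 558, 559 and 534 CPM in PLX3X_CD30, 527, 477 and 495 CPM in PLX3X_CD0, 556, 539.6 and 556 CPM in PLX1X, and 672, 573 and 590.5 CPM in NT. It fell in IR_BMT (-0.32, adjusted p = 0.000493) and PLX3X_CD0 (-0.29, adjusted p = 0.00178).

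Enpp2, autotaxin, which oligodendrocytes share with the choroid plexus, followed the plexus RNA. It had 771, 344 and 317 CPM in IR_BMT and 1821, 309 and 351 CPM in PLX3X_CD0, against 335, 348 and 292 CPM in NT, and the high libraries were the ones with Ttr at 448 and 1481 CPM. Its difference from NT was 0.55 in IR_BMT (95% interval -0.79 to 1.90) and 1.35 in PLX3X_CD0 (-0.01 to 2.71), and neither passed. Without the 3 libraries that stood apart it was 0.05 in both.

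**Figure D3:**
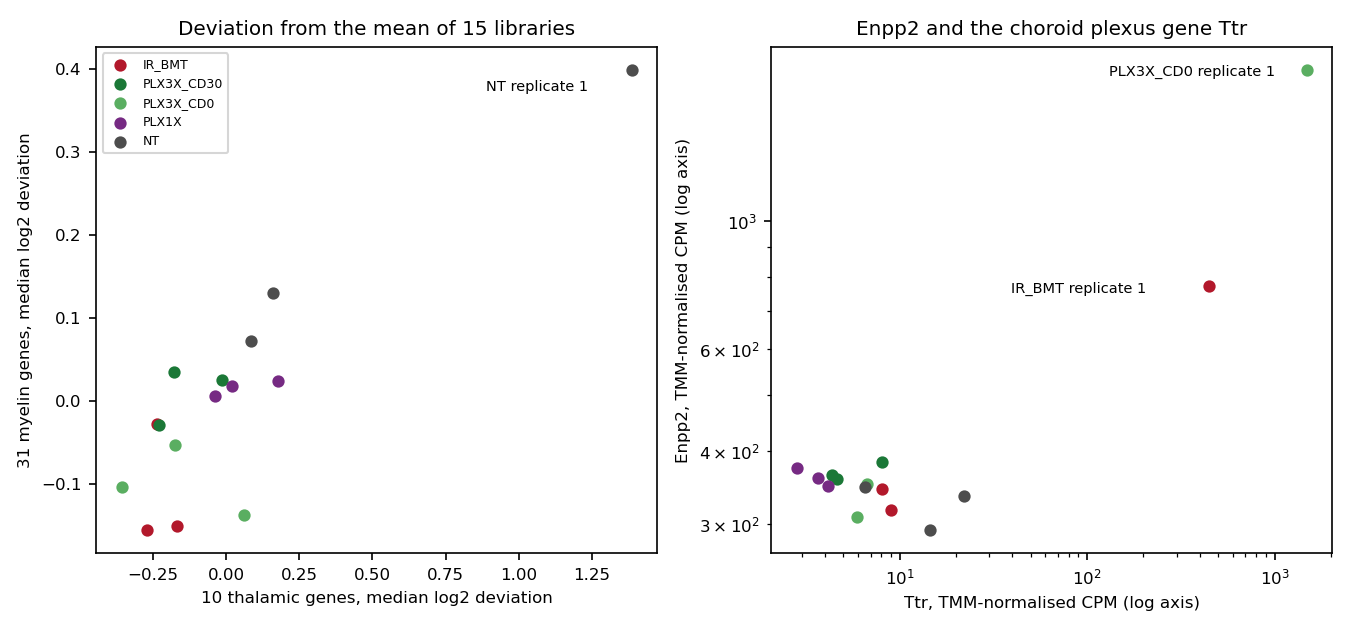
Left, median log2 deviation of the 31 genes (vertical) against that of the thalamic list (horizontal), 1 point per library; NT replicate 1 lies apart at 0.40 and 1.39. Right, Enpp2 (vertical) against Ttr (horizontal) in CPM on log axes; replicate 1 of PLX3X_CD0 and of IR_BMT are high for both.

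Of the 3 transcription factors, 0 fell in IR_BMT, 0 in PLX3X_CD30, 1 in PLX3X_CD0 and 1 in PLX1X. Myrf (ENSMUSG00000036098, chr19:10208272-10240748), the factor that switches on myelin genes, had 46.7, 51.1 and 49.3 CPM in IR_BMT, 54.8, 49.9 and 49.3 CPM in PLX3X_CD30, 49.4, 49.5 and 50.9 CPM in PLX3X_CD0, 54.6, 53.0 and 50.5 CPM in PLX1X, and 47.0, 49.3 and 49.8 CPM in NT. The PLX1X libraries lay just above NT, and the other treated groups overlapped it. Its 95% intervals against NT were -0.11 to 0.13 in IR_BMT, -0.05 to 0.19 in PLX3X_CD30, -0.08 to 0.15 in PLX3X_CD0 and -0.01 to 0.23 in PLX1X, and none passed (adjusted p from 0.189 to 0.932, edgeR). Sox10 (ENSMUSG00000033006, chr15:79154908-79165240), which acts upstream of Myrf, had 61.04, 65.7 and 68.2 CPM in IR_BMT, 64.8, 62.5 and 61.5 CPM in PLX3X_CD30, 59.8, 61.9 and 62.2 CPM in PLX3X_CD0, 57.0, 57.1 and 60.8 CPM in PLX1X, and 85.8, 61.8 and 80.0 CPM in NT. NT replicate 2 lay among the treated libraries, and PLX1X alone lay below all of NT. Sox10 fell in PLX1X (-0.38 ± 0.08, adjusted p = 0.00416), a call lost in a fit on the 6 libraries compared (adjusted p = 0.0542). Its -0.31 ± 0.08 in PLX3X_CD0 (adjusted p = 0.0135) was lost without NT replicate 1 or 3 or PLX3X_CD0 replicate 1 (adjusted p from 0.0526 to 0.0753). In IR_BMT it had -0.22 ± 0.08 (adjusted p = 0.0559), and it passed there without NT replicate 2. Nkx6-2, a homeodomain factor of the lineage, was at 29.4, 16.4 and 18.3 CPM in NT and had -0.29 in IR_BMT, -0.36 in PLX3X_CD30, -0.26 in PLX3X_CD0 and -0.20 in PLX1X, none of which passed. Without NT replicate 1 the values were -0.02, -0.06, 0.03 and 0.09 in the same order, 2 of them with the other sign. Without NT replicate 2, which left NT replicate 1 in, Nkx6-2 passed as lower in IR_BMT, PLX3X_CD30 and PLX3X_CD0.

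Which genes passed in IR_BMT depended on a correction for transcript length and GC content. A fit with a smooth term for transcript length and GC content took the count of genes lower than NT in IR_BMT to 22 and left 0 higher, where over all genes 2907 were higher and 2154 lower, against 3293 higher and 3365 lower without the term. Under that fit Mag had -0.28 (adjusted p = 0.00306, edgeR; range over alternatives 0.00306 to 0.942) and Myrf -0.23 (adjusted p = 0.0051; range 0.0051 to 1), both passing as lower, while Ugt8a had -0.11 (adjusted p = 0.305; range 3.85e-11 to 0.305) and Aspa -0.16 (adjusted p = 0.172; range 3.51e-08 to 0.172) and did not pass. Mbp, Mobp, Plekhb1, Evi2a, Mal, Tspan2, Mog and Ermn fell in IR_BMT under that fit as well.

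Set against the PLX groups, IR_BMT differed in 11 to 14 of the 31 genes. It was lower than PLX3X_CD30 for 10 of the 31 and higher for 1, where 8.88% of all genes tested passed as lower and 7.63% as higher. Against PLX3X_CD0 it was lower for 6 and higher for 6 (11.4% and 10.1%), and against PLX1X lower for 11 and higher for 3 (14.6% and 13.9%). The total of 11 against PLX3X_CD30 was 7 without PLX3X_CD30 replicate 2 and 5 without IR_BMT replicate 2. The total of 12 against PLX3X_CD0 was 7 without PLX3X_CD0 replicate 1 or 3 and 6 without IR_BMT replicate 2, and the total of 14 against PLX1X was 9 without PLX1X replicate 1 or 3 or IR_BMT replicate 2. Without the 3 libraries that stood apart, IR_BMT was lower for 10 and higher for 2 against PLX3X_CD30 (10.8% lower, 10.3% higher over all genes), lower for 7 and higher for 5 against PLX3X_CD0 (11.4% lower, 10.9% higher), and lower for 10 and higher for 4 against PLX1X (15.4% lower, 15.1% higher). Mal, Tspan2, Mog, Ugt8a and Aspa were lower in IR_BMT than in all 3 PLX groups, comparisons that share the IR_BMT libraries.

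Mal (ENSMUSG00000027375, chr2:127633226-127656695) had 79.0, 83.9 and 86.5 CPM in IR_BMT, against 115, 115 and 128 CPM in PLX3X_CD30, 108, 109 and 118 CPM in PLX3X_CD0, 125, 126 and 128 CPM in PLX1X, and 146, 113 and 115 CPM in NT. Every IR_BMT library lay below the other 12. Its fold changes were -0.52 against PLX3X_CD30 (adjusted p = 0.000327, edgeR), -0.42 against PLX3X_CD0 (adjusted p = 0.00086), -0.60 against PLX1X (adjusted p = 2.29e-05) and -0.58 against NT (adjusted p = 2.56e-05). Tspan2 (ENSMUSG00000027858, chr3:102734529-102801513) had 56.0, 54.8 and 58.0 CPM in IR_BMT, against 81.2, 88.0 and 80.0 CPM in PLX3X_CD30, 84.5, 81.6 and 85.8 CPM in PLX3X_CD0, 96.2, 106 and 95.04 CPM in PLX1X, and 108, 79.2 and 75.7 CPM in NT. IR_BMT was again below all other libraries, with -0.56 against PLX3X_CD30 (adjusted p = 0.000987), -0.58 against PLX3X_CD0 (adjusted p = 0.000441), -0.81 against PLX1X (adjusted p = 1.36e-05) and -0.63 against NT (adjusted p = 0.000111). In PLX1X, Tspan2 did not pass against NT with all libraries (0.18, adjusted p = 0.204) and passed as higher without NT replicate 1 (0.37, adjusted p = 0.000266; range over alternatives 0.000266 to 0.521).

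Mog, whose IR_BMT libraries also lay below the other 12, was lower, with -0.40 ± 0.08 against PLX3X_CD30 (adjusted p = 0.00309, edgeR), -0.38 ± 0.08 against PLX3X_CD0 (adjusted p = 0.00259) and -0.57 ± 0.08 against PLX1X (adjusted p = 5.44e-05). Mal, Tspan2 and Mog passed in each of these comparisons under every alternative, and with the length and GC term their fold changes were -0.49, -0.33 and -0.44 against PLX3X_CD30, -0.39, -0.32 and -0.46 against PLX3X_CD0, and -0.57, -0.54 and -0.64 against PLX1X. Ugt8a and Aspa did not hold. Ugt8a had -0.38, -0.33 and -0.57 against PLX3X_CD30, PLX3X_CD0 and PLX1X (adjusted p of 0.00655, 0.0103 and 0.000102), and -0.02, -0.02 and -0.19 with the term. Without IR_BMT replicate 2 it did not pass against PLX3X_CD30 (adjusted p = 0.0506), and without that library or PLX3X_CD0 replicate 1 or 3 it did not pass against PLX3X_CD0 (0.0514 to 0.0706). Aspa had 19.5, 20.1 and 19.9 CPM in PLX3X_CD30, 20.2, 20.3 and 19.9 CPM in PLX3X_CD0 and 22.2, 22.3 and 18.9 CPM in PLX1X, all above its IR_BMT libraries. Its fold changes of -0.41, -0.44 and -0.50 became -0.07, -0.12 and -0.13 with the term, and none passed then for either gene (adjusted p from 0.0702 to 0.932).

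In the other direction, Gal3st1 was higher in IR_BMT than in each PLX group, by 0.27 against PLX3X_CD30 (adjusted p = 0.0194, edgeR), 0.36 against PLX3X_CD0 (adjusted p = 0.00209) and 0.52 against PLX1X (adjusted p = 6.85e-05). The first of these was lost without PLX3X_CD30 replicate 1 or 2 or IR_BMT replicate 2 or 3 (adjusted p from 0.0518 to 0.0756). Ppp1r14a and Tmem125 passed as higher than PLX3X_CD0 (1.21 and 0.40, adjusted p of 0.0217 and 0.0441) and PLX1X (1.03 and 0.40, adjusted p of 0.0353 and 0.0338). Against PLX3X_CD0, Ppp1r14a lost its call without PLX3X_CD0 replicate 1 or 2 or IR_BMT replicate 2 or 3, and Tmem125 without any 1 of the 6 libraries. Against PLX1X, Ppp1r14a lost it without any 1 of the 6 libraries, and Tmem125 without PLX1X replicate 1 or 2 or IR_BMT replicate 2 or 3 (adjusted p from 0.0518 to 0.152 in all these). With the length and GC term none of these calls passed. The 5 genes lower than all PLX groups had transcripts of 38.0 to 50.0% GC, these 3 had 56.1 to 61.7% GC, and the 31 genes spanned 38.0 to 64.3% GC. Over all genes tested, the split against PLX3X_CD0 was 2195 higher and 2492 lower as deposited and 1304 higher and 906 lower with the term.

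**Figure D4:**
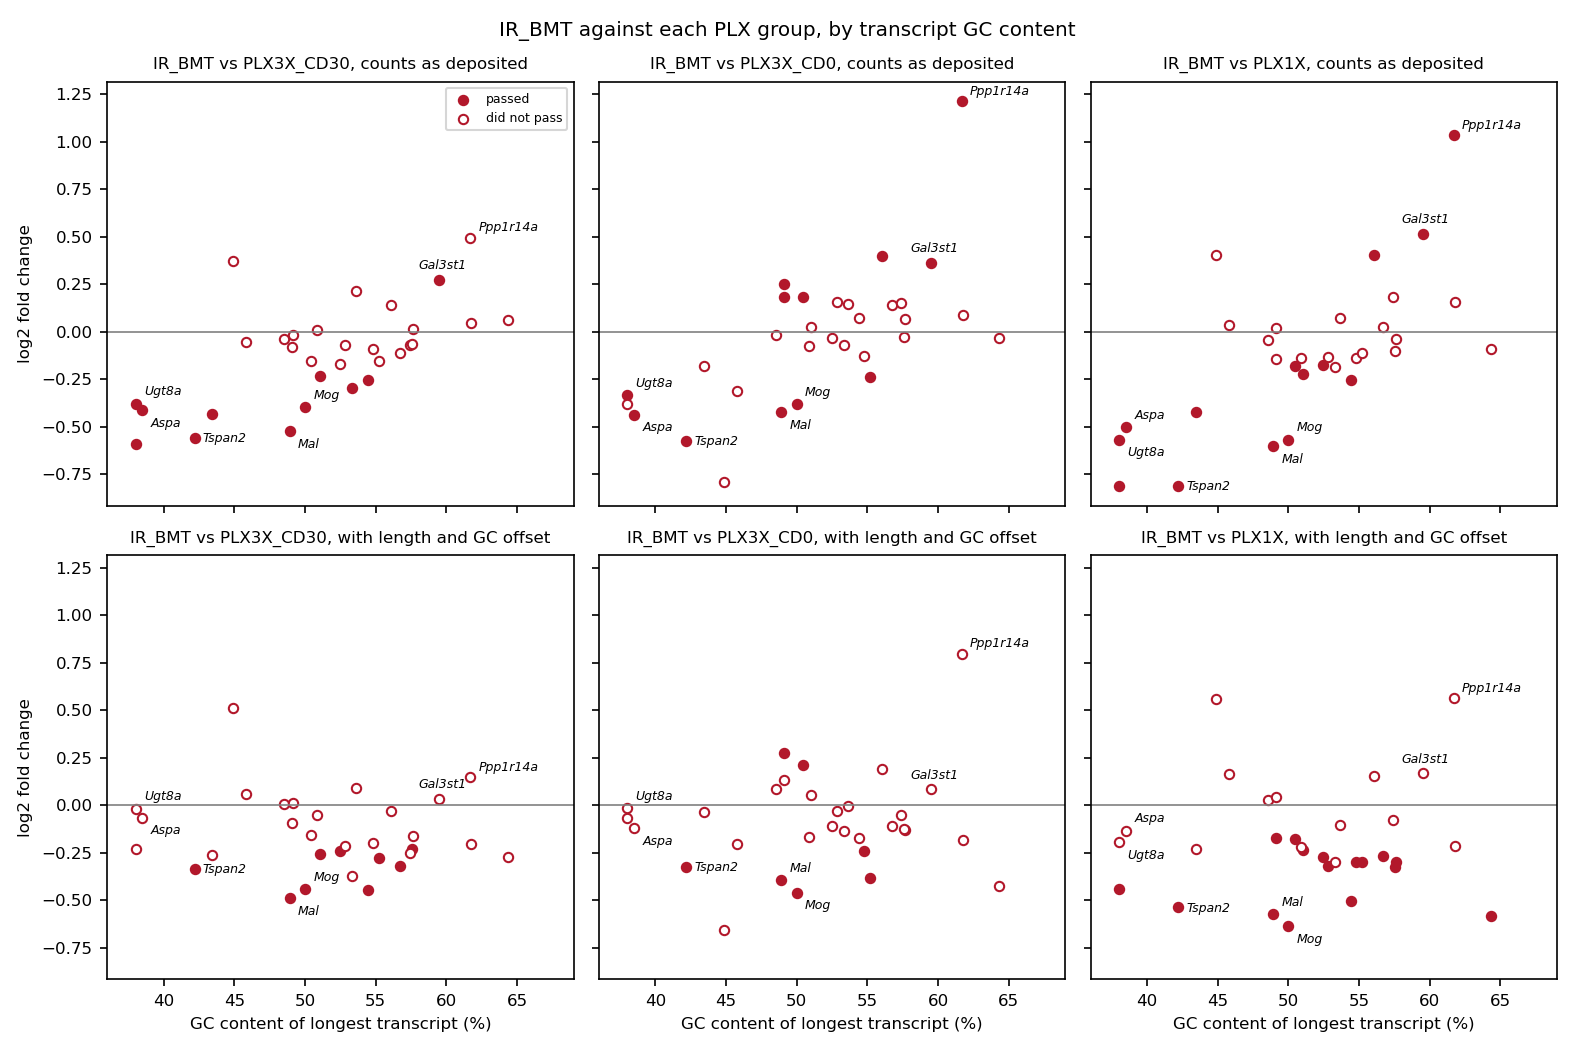
Log2 fold change of the 31 genes between IR_BMT and each PLX group (vertical) against the GC content of the longest transcript in percent (horizontal), from the counts as deposited (upper row) and with the length and GC term (lower row). Filled points passed the test; Mal, Tspan2 and Mog stay filled in every panel, while Ugt8a, Aspa and Gal3st1 are open in the lower row.

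Among the PLX groups few of the genes differed. In PLX3X_CD30 5 genes were higher than in PLX3X_CD0 and 0 lower, where 1.87% of all genes tested passed as higher and 1.93% as lower. These were Mbp (0.26 ± 0.07, adjusted p = 0.035, edgeR), Cryab (0.33 ± 0.08, adjusted p = 0.0344), Plekhb1 (0.26 ± 0.06, adjusted p = 0.0126), Car2 (0.26 ± 0.06, adjusted p = 0.0161) and Ndrg1 (0.33 ± 0.06, adjusted p = 0.00281). Ndrg1 alone passed under every alternative. The count was 1 without PLX3X_CD0 replicate 1 or PLX3X_CD30 replicate 1 or 2, 2 without PLX3X_CD0 replicate 2, and 4 with the length and GC term, where Cryab did not pass. Without the 3 libraries that stood apart 7 genes were higher and 0 lower (2.17% higher, 2.74% lower over all genes). In PLX3X_CD0 4 genes were lower than in PLX1X and 0 higher (0.67% and 1.79% of all genes), namely Car2 (-0.32 ± 0.06, adjusted p = 0.00665), Ndrg1 (-0.36 ± 0.06, adjusted p = 0.00316), Cryab (-0.33 ± 0.08, adjusted p = 0.0464) and Plekhb1 (-0.23 ± 0.06, adjusted p = 0.0446). Car2 and Ndrg1 passed under every alternative, and Cryab and Plekhb1 did not pass without any 1 of the 6 libraries (adjusted p from 0.0562 to 0.182), which left 2 genes. Without the 3 libraries that stood apart 8 were lower and 0 higher (0.92% lower, 2.26% higher). Over all genes this split was 390 higher and 146 lower as deposited, and the term for length and GC made it 186 higher and 187 lower. For PLX3X_CD30 and PLX3X_CD0 it was 407 higher and 421 lower as deposited and 452 higher and 250 lower with the term.

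Between PLX3X_CD30 and PLX1X, 0 of the 31 genes passed edgeR's test, where 1.08% of all genes passed as higher and 0.129% as lower. At an unadjusted p below 0.05 there were 4, and DESeq2 called 0. Without the 3 libraries that stood apart, 1 passed as higher, Ppp1r14a, and 1 as lower, Tspan2 (1.81% higher, 0.65% lower over all genes). Mbp's difference there was 0.02 on the log2 scale, with a 95% interval of -0.13 to 0.16.

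Other genes listed for mature oligodendrocytes, outside the 31, moved in both directions. Of 26, 12 were lower and 3 higher than NT in IR_BMT, 5 lower and 1 higher in PLX3X_CD30, 11 lower and 3 higher in PLX3X_CD0, and 7 lower and 2 higher in PLX1X. Over all genes tested, 15.4% passed as lower and 15.1% as higher in IR_BMT, and 1.84% and 4.74% in PLX3X_CD30. In PLX3X_CD0 these shares were 9.53% and 12.2%, and in PLX1X 8.12% and 9.97%. The same shares stand beside each further list set against NT with all libraries. The connexin gene Gjc3 had -0.66, -0.25, -0.48 and -0.25 in these groups, all passing, while Tppp, a microtubule-binding protein, had 0.42, 0.28, 0.33 and 0.26, all passing as higher. Nfasc was also higher in IR_BMT (0.39, adjusted p = 3.89e-05, edgeR), and Cntn2 in PLX3X_CD0 (0.36, adjusted p = 1.78e-05). Neuronal sums, given below, also lay above NT in every treated group, though not every neuronal gene was higher. How far cells other than oligodendrocytes took part in these rises was not tested. Of 12 further genes of myelin lipid metabolism, 5 were lower and 1 higher in IR_BMT, 1 lower in PLX3X_CD30, 1 lower and 2 higher in PLX3X_CD0, and 1 lower and 1 higher in PLX1X. Gltp, a glycolipid transfer protein, was lower in every group, and Cers2, the ceramide synthase of very long chains, had -0.34 in IR_BMT (adjusted p = 0.000199, edgeR). Of 7 genes of newly formed oligodendrocytes, 4 fell and 1 rose in IR_BMT, 2 fell in PLX3X_CD30, 3 fell in PLX3X_CD0 and 4 fell in PLX1X. Among them Bcas1, a marker of cells that have just begun to myelinate, had 72.0, 65.9 and 69.6 CPM in IR_BMT, 106, 104 and 97.8 CPM in PLX3X_CD30, 71.5, 68.6 and 73.5 CPM in PLX3X_CD0, 88.7, 97.8 and 103 CPM in PLX1X, and 181, 135 and 136 CPM in NT. Its falls of -1.12, -0.56, -1.08 and -0.64 were larger than those of Mbp in the same comparisons, a difference between the 2 genes that was not tested.

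Genes of other regions and cells also differed from NT, but not all in the same direction or in the same groups. The thalamic list had medians of -0.88 in IR_BMT, -0.80 in PLX3X_CD30, -0.72 in PLX3X_CD0 and -0.60 in PLX1X against NT, and 5, 2, 3 and 1 of its 10 genes fell. Without NT replicate 1 the medians were -0.41, -0.18, -0.26 and -0.09 in the same order, and 3, 1, 1 and 0 fell. Its summed level was 130.3 to 140.6 CPM in IR_BMT, 151.3 to 164.7 in PLX3X_CD30, 124.5 to 140.1 in PLX3X_CD0, 150.6 to 180.8 in PLX1X and 157.2 to 377.7 in NT. Tcf7l2, which oligodendrocyte lineage cells also express, was among the thalamic genes that fell in IR_BMT (-1.18, adjusted p = 0.0481, edgeR). It had 62.0, 18.5 and 20.1 CPM in NT. Of 9 striatal genes 6 fell in IR_BMT (median -0.72) and 0 in any other group, with sums of 1571 to 2397 CPM in IR_BMT and 2862 to 3124 CPM in NT. In a cortical list, Tbr1 (0.73, adjusted p = 0.000554, edgeR), Cux2 (0.49, 0.000572) and Mef2c (0.44, 0.00156) were higher in IR_BMT. Rorb was lower there (-0.38, 0.0101). The cortical sums were 886 to 1120 CPM in IR_BMT, 973.1 to 1021 in PLX3X_CD30 and 835 to 1058 in PLX3X_CD0. In PLX1X they were 850.5 to 1022 CPM and in NT 682.2 to 858.5 CPM. Neuronal genes summed to 10190 to 10980 CPM in IR_BMT, 9987 to 10500 in PLX3X_CD30, 9731 to 10430 in PLX3X_CD0, 9627 to 10350 in PLX1X and 8072 to 8912 in NT. The neuronal genes did not all move alike. Slc17a7 had 2406, 2289 and 2213 CPM in IR_BMT, against 1089, 1467 and 1291 CPM in NT. Syp and Syt1 also lay above NT there. Gad2 had 160.9, 177.4 and 224.5 CPM in IR_BMT, against 251.5, 244.8 and 299.7 CPM in NT. In IR_BMT, Gad1, Nefl and Nefm overlapped NT. How far the share of each region in the dissected tissue took part in the oligodendrocyte values was not tested.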

How the data were processed

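RNA of frozen mouse forebrain was extracted with a lipid tissue kit and made into cDNA with a low-input kit, per the labels' protocols. Tools with versions and settings not given in the sources used here, per the submitters' processing notes, are DRAGEN and DESeq2, and the build is mm10. The authors deposited 1 table of raw read counts and CPM per gene for 15 libraries. The deposited CPM equalled count over library total within 5.0e-07. Of 55774 rows, 287 repeated an identifier with the same counts and were removed. Between 70.6% and 74.7% of counts from 1 to 4 were even, so counts may overstate independent fragments.

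The 31 genes, the other lists and the comparisons were chosen with earlier results of these data known. Counts of all 15 libraries were fitted together in edgeR 4.0.16 (R 4.3.3) by group, with TMM scaling, filterByExpr and robust quasi-likelihood tests, leaving 21780 genes, 10 residual degrees of freedom and a biological coefficient of variation of 12.1%. The SE is the log2 fold change over the square root of its F statistic. The code was tested on simulated data. Replicates of each group differed beyond sampling noise (chi-square per degree of freedom 3.94 to 27.0). Library totals of 19249641 to 54801136 counts set the precision. Gene positions, transcript lengths and GC content are from GENCODE release 21 (mm10), which held 55227 of the identifiers.

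Alternatives were DESeq2 1.42.0, its size-factor scaling within edgeR, no filter, a stricter filter (CPM of 1 in 3 libraries), a separate fit of just the 6 libraries of each comparison, a replicate block, a smooth offset by length and GC of the transcript (loess, span 0.3) and leaving out each library. Leaving out the 3 libraries that stood apart was added after the data were seen. Values in every library were given for genes that passed in at least 3 of the 4 comparisons with NT and for Mbp, Mag, Mog, Cnp, Ugt8a, Myrf and Sox10, and for others picked, after their values were seen, for the size of their change or for their differences from the PLX groups. Of each other list, at most 4 genes with the smallest adjusted p were named per comparison. Precursor and neuronal genes given by level alone, and Tcf7l2, were named besides these.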

Additional observations from a re-analysis of the deposited data

How the results depend on the processing

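Of 310 pairs of gene and comparison, 95 passed, 44 of these passed under every alternative, and 0 of the 95 changed sign. The replicate numbers did not pair the libraries: deviations of same-numbered libraries correlated by -0.0801 to 0.199, and 0 of 10 group pairs had all 3 correlations above 0.1. With the replicate block, 20 genes passed for IR_BMT against NT, 4 for PLX3X_CD30, 16 for PLX3X_CD0 and 10 for PLX1X; 11, 11 and 14 passed for IR_BMT against PLX3X_CD30, PLX3X_CD0 and PLX1X, 5 for PLX3X_CD30 against PLX3X_CD0, 0 for PLX3X_CD30 against PLX1X and 3 for PLX3X_CD0 against PLX1X.

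PLX3X_CD30 against NT, with 5 genes, gave 12 without the filter, 11 with DESeq2, 2 in the fit on 6 libraries and 2 without the 3 libraries that stood apart. Over all genes, DESeq2 called 639 lower and 1486 higher in that comparison. For PLX3X_CD0 against PLX1X it called 415 lower and 651 higher. Shares over all genes are not given here for the runs without the filter or on 6 libraries. PLX3X_CD0 against NT, with 17, gave 10 in the fit on 6 libraries. PLX3X_CD0 against PLX1X, with 4, gave 9, 7, 8 and 8 under the same 4 settings, and PLX3X_CD30 against PLX1X, with 0, gave 2 without the filter, 4 in the fit on 6 libraries and 2 without the 3 libraries. IR_BMT against PLX3X_CD0, with 12, gave 7 with the length and GC offset. The cause was not tested. Leaving out 1 library gave 16 to 23 genes for IR_BMT, 2 to 10 for PLX3X_CD30, 13 to 19 for PLX3X_CD0 and 7 to 13 for PLX1X against NT. It gave 5 to 9, 6 to 11 and 9 to 12 for IR_BMT against PLX3X_CD30, PLX3X_CD0 and PLX1X, 1 to 5 for PLX3X_CD30 against PLX3X_CD0, 0 to 0 for PLX3X_CD30 against PLX1X and 2 to 2 for PLX3X_CD0 against PLX1X. With the offset Myrf in IR_BMT against NT had -0.23 (adjusted p = 0.0051), against 0.01 without it, and Gjb1 in IR_BMT against PLX1X had -0.27 (adjusted p = 0.0206), against 0.03. Between TMM scaling and the deposited CPM, 144 of 155 group means moved by less than 1 SD. Genes near 10 CPM, such as Tmem125 and Pllp, rest on the fewest reads.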

Other observations

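Of 7 other transcription factors of the lineage, 2 fell in IR_BMT, 1 in PLX3X_CD30, 2 in PLX3X_CD0 and 2 in PLX1X against NT. In the same order 15.4%, 1.84%, 9.53% and 8.12% of all genes tested fell, and 15.1%, 4.74%, 12.2% and 9.97% rose. These shares stand beside the precursor and astrocyte counts below as well. Olig1 had log2 fold changes of -0.03 in IR_BMT, -0.36 in PLX3X_CD30, -0.50 in PLX3X_CD0 and -0.47 in PLX1X, and the 3 PLX values passed (edgeR). Olig2 had 0.16 in IR_BMT, -0.14 in PLX3X_CD30, -0.52 in PLX3X_CD0 and -0.41 in PLX1X, of which those in PLX3X_CD0 and PLX1X passed. St18 fell in IR_BMT (-0.73, adjusted p = 0.000924, edgeR). Of 9 genes of oligodendrocyte precursors, 3 fell and 2 rose in IR_BMT, 0 passed in PLX3X_CD30, 1 fell and 2 rose in PLX3X_CD0, and 1 fell and 1 rose in PLX1X. Cspg4, the NG2 proteoglycan, rose in IR_BMT (0.63, adjusted p = 3.13e-05) and PLX3X_CD0 (0.40, adjusted p = 0.00302). Other precursor genes differed in direction. Vcan had 7.13, 8.89 and 7.48 CPM in IR_BMT, against 10.34, 12.16 and 12.35 CPM in NT. Cacng4 had 31.2, 37.5 and 44.1 CPM in IR_BMT, against 52.4, 54.3 and 57.2 CPM in NT. Every IR_BMT library of Lhfpl3 also lay below every NT library. Those of Tnr lay above NT, and those of Pdgfra overlapped it. Of 11 astrocyte genes, 3 fell in IR_BMT, 1 in PLX3X_CD30, 8 in PLX3X_CD0 and 4 in PLX1X, and Gja1, the astrocyte connexin, fell in all 4.

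Over the 15 libraries, which fall into 5 groups with NT high, the genes whose log2 CPM was most like Mbp's were Qk and Bcas1 (Pearson r = 0.96 each), Amer2, Baz1a and Bptf (0.95 each). Taken within groups, the same 5 had r of 0.50, 0.54, 0.79, 0.68 and 0.50. Among the 31 genes Evi2a and Mobp were nearest (0.94 each), and Enpp2 was farthest (-0.45).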
